A study of Mus musculus with 69 samples.

Results

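The regions described here are the 500 largest H3K27ac clusters of wild-type haematopoietic stem cells (HSCs). They were chosen from the peak list of wild-type HSCs after PBS: autosomal H3K27ac peaks were joined wherever the gap between them was at most 12.5 kb, the bases under peaks were summed for each cluster, and the 500 clusters with most covered bases were kept out of 18810. They make up 2.66% of the clusters, hold 17.1% of the peaks and cover 20.7% of the bases under H3K27ac peaks in that list. Because the H3K27ac peaks of wild-type HSCs after PBS chose the clusters, their size in that list, and any comparison that uses the list, is a description. The other 17 lists of the series were not used in the choice.

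The study measured H3K4me1 and H3K27ac by ChIPmentation, in which precipitated chromatin is cut and tagged by the Tn5 transposase, in sorted mouse HSCs and haematopoietic progenitor cells (HPCs). The genotypes were wild type, heterozygous (Kmt2c f/+; Vav-Cre) and knockout (Kmt2c f/f; Vav-Cre). Kmt2c encodes MLL3, which methylates histone H3 at lysine 4, and Vav-Cre removes the floxed alleles in blood-forming cells, so the marrow stroma keeps the gene. Each of the 18 groups has 1 list of peaks for all its libraries, so no value below has a replicate error, no test was possible, and a difference is a difference between lists. H3K27ac of HSCs was profiled at 16 weeks of age, 3 libraries per group, in wild-type and knockout mice given PBS or 5-fluorouracil (5FU, 150 mg/kg) 3 times at intervals of 3 weeks. 5FU blocks DNA synthesis and so depletes cycling blood cells. H3K27ac of HPCs was profiled at 8 to 10 weeks, 4 libraries per group, in wild-type and knockout mice given PBS or IL-1 for 3 days (interleukin-1, a cytokine of inflammation, at 0.5 µg daily). H3K4me1 was profiled in untreated wild-type, heterozygous and knockout HSCs and HPCs at 8 weeks, 3 libraries per group, and in HSCs of the 16-week PBS and 5FU groups, 3 to 6 libraries per group. The labels do not say whether libraries of a group come from separate mice. The wild-type 5FU H3K4me1 list combined 6 libraries of 2 numbered sets.

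H3K27ac is laid down by the acetyltransferases p300 and CBP at active enhancers and promoters, and H3K4me1 marks enhancers before and during their activity while being scarce at the centre of active CpG-rich promoters. Where active enhancers lie close together they form long stretches of H3K27ac, often called stretch enhancers or super-enhancers. In blood stem cells such stretches are known around genes of the transcription factors that set cell identity, several of which bind their own and each other's enhancers.

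The lists held 37002 to 134509 peaks, and covered 33.1 to 45.4 Mb of the autosomes for H3K27ac and 44.2 to 116 Mb for H3K4me1. The clusters took a like share of every H3K27ac list (17.7% to 20.7% of its covered bases) and 12.1% to 18.9% of each H3K4me1 list. Genes of mature cells and genes silent in blood were looked up too, where 4.01% of all autosomal protein-coding genes lay over clusters. Of the granulocyte and monocyte genes Spi1 alone had a cluster (1 of 23, 4.35%). Of mature T, NK and B cell markers Cd5 and Klrb1c had one (2 of 16, 12.5%), and of genes silent in blood none (0 of 20). Counts this small, near or above the share of all genes in the first 2 lists, do not check the HSC label.

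The promoter windows of 7 HSC regulators that lie inside clusters are shown because they carry the 2 patterns that recur below. Erg, Runx1, Tal1 and Meis1 have clusters in both cell types, while Mecom, Prdm16 and Mllt3 have clusters that are large in HSCs and small in HPCs. Each window runs from 250 bases before to 50 bases after an annotated start (RefSeq, GRCm38.p6), is written on the gene's strand, and has in capitals any match, on either strand, to the letters of 4 motifs. For GATA factors the letters searched were AGATAA. For RUNX factors, the core-binding proteins, they were TGTGGT. For ETS factors such as ERG and FLI1 they were GGAAGT. For the E-box bound by TAL1 and its partners they were CAGCTG. No matches of different motifs overlap in them.
Erg, chr16:95459299-95459598, minus strand: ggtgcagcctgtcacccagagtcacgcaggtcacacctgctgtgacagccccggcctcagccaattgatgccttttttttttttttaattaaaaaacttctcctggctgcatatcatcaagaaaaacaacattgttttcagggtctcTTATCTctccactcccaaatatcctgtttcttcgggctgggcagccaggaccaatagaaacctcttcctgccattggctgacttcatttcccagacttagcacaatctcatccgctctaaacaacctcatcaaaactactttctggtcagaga
Runx1, chr16:92826025-92826324, minus strand: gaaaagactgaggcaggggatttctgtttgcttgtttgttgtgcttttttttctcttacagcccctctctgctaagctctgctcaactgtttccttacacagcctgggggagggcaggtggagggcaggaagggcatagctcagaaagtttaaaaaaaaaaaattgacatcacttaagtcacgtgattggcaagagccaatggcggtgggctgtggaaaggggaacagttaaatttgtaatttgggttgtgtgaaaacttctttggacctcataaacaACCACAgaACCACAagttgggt
Tal1, chr4:115056176-115056475, plus strand: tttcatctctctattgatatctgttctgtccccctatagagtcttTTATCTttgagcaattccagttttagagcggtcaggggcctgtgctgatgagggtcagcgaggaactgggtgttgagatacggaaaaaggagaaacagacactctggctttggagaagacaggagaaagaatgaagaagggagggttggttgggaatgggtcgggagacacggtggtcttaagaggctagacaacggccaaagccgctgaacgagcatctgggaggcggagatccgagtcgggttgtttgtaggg
Meis1, chr11:19018920-19019219, minus strand: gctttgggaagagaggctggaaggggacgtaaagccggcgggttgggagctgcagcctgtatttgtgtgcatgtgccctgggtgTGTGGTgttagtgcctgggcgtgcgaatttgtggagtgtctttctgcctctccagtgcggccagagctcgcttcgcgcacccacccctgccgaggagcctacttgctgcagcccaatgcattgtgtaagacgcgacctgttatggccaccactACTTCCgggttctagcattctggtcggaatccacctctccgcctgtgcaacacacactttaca
Mecom, chr3:30509710-30510009, minus strand: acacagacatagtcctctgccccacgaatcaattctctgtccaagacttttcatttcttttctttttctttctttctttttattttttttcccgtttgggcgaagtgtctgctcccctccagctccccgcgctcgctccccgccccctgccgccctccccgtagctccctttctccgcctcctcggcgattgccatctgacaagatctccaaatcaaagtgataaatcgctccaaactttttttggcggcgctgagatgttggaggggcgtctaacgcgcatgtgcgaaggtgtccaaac
Prdm16, chr4:154636824-154637123, minus strand: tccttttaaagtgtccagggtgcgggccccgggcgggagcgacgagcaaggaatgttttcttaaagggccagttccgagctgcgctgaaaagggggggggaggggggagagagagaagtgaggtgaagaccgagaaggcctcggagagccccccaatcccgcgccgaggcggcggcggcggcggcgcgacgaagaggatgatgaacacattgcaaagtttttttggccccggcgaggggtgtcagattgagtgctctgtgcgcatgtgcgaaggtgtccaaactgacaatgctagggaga
Mllt3, chr4:87806274-87806573, minus strand: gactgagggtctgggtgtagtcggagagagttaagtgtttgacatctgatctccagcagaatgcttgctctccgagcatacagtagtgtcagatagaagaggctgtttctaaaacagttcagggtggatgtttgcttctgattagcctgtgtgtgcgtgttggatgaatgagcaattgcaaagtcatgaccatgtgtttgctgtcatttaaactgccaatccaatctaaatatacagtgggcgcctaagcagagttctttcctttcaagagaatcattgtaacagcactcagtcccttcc
The H3K27ac peaks of wild-type HSCs after PBS covered all 300 bases of the Runx1, Tal1, Meis1, Prdm16 and Mllt3 windows, 277 of the Erg window and 224 of the Mecom window. The Erg, Runx1, Tal1, Meis1 and Mecom windows had an H3K27ac peak in 8 of 8 lists. The Prdm16 window had one in all 4 HSC lists and in 2 of 4 HPC lists, and the Mllt3 window, at a start within the gene, in the 4 HSC lists alone. In H3K4me1 the order was different. The Meis1, Mecom and Prdm16 windows lay under no H3K4me1 peak in any of 10 lists, the Erg window in 2, the Runx1 window in 3, the Tal1 window in 4 and the Mllt3 window in 8. Another Tal1 window in the same cluster, chr4:115057561-115057860, is not printed. It had an H3K27ac peak in 8 of 8 lists, an H3K4me1 peak in 0 of 10 and no motif match. Over all 696 promoter windows inside clusters (543 genes), 77.0% to 88.5% had an H3K27ac peak, depending on the list, and 19.1% to 39.7% an H3K4me1 peak. Over all 20085 autosomal windows these ranges were 42.1% to 48.2% and 4.55% to 17.6%. The motif letters were about as common in the clusters' windows as in all: 6.75% against 9.57% for the GATA letters, 12.6% against 14.8% for the RUNX letters, 27.7% against 25% for the ETS letters and 16.7% against 15.6% for the E-box.

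Of 919 autosomal miRNA hairpins in the RefSeq table, 39 (4.24%) lay inside 32 clusters. Some of them, chosen after the clusters were known, are shown by their mature sequence with the seed (bases 2 to 8) in capitals. The set is given as examples of miRNA genes inside the spans of the clusters. Whether a hairpin itself lay under a peak was not counted.
miR-196b-5p: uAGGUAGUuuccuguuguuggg
miR-10a-5p: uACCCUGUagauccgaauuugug
miR-21a-5p: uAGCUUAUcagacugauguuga
miR-23a-3p: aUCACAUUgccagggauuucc
miR-27a-3p: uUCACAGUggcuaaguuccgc
miR-24-3p: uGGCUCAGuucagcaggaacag
miR-142a-3p: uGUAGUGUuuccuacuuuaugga
miR-200b-3p: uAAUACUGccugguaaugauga
miR-429-3p: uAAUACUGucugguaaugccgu
miR-196b lies in the Hoxa cluster (cluster 72), miR-10a in the Hoxb cluster (cluster 313), miR-21a at Vmp1 (cluster 40), and miR-23a, miR-27a and miR-24 beside Zswim4 (cluster 126). miR-142a, a miRNA abundant in blood cells, lies in cluster 320. The pair miR-200b and miR-429 shares 1 seed and lies beside Ttll10 (cluster 386). No other pair printed here shares a seed.

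The clusters differed widely in size and build. Covered bases ran from 10448 to 82387 with a median of 14096, spans from 14140 to 192980 bases with a median of 44935, and peaks per cluster from 5 to 113 with a median of 17. Peaks filled a median of 34.6% of the span (11.9% to 86.6%). The boundary is not a break in the data. The last 5 clusters inside it covered 10448 to 10474 bases (at Mpzl1/Rcsd1, Chn2, Irf1, Nf1/Evi2 and Kctd11/Acap1) and the first 5 outside covered 10410 to 10439 (at Ankrd13d/Grk2, Inf2, Rora, Rere and Gtpbp1/Sun2). The spans held 828 protein-coding genes, 4.01% of 20665 on the autosomes. A single gene lay over 283 clusters and none over 37, and 147 clusters held neither end of any protein-coding gene, so that they lie within a gene or between genes. Several genes had 2 clusters, among them Etv6, Meis1, Foxp1, Cdk19, Cmip, Pecam1 and Cables1.

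**Figure D1:**
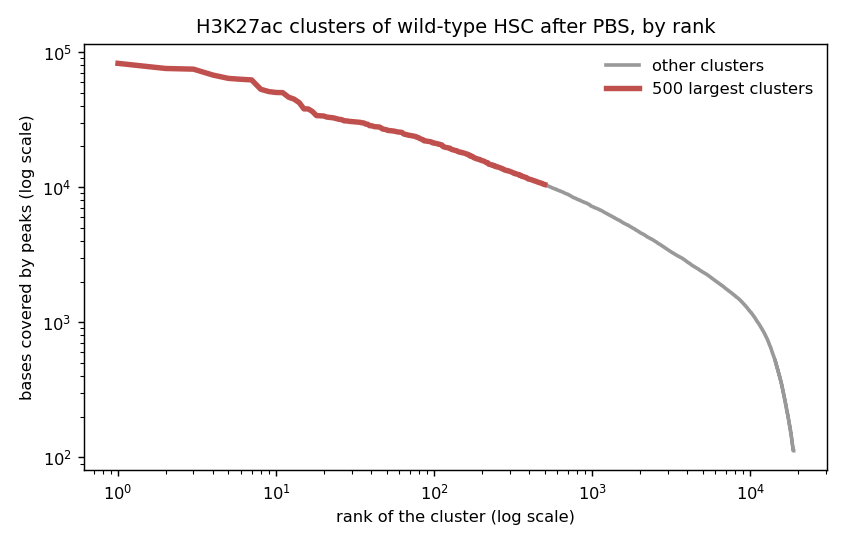
Bases under H3K27ac peaks (y axis, log scale) of all 18810 autosomal clusters of wild-type HSCs after PBS, by rank (x axis, log scale). The red line holds the 500 largest clusters, from 82387 bases at rank 1 to 10448 at rank 500, and runs on into the grey line of the other clusters without a step.

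The largest cluster, at chr17:83897189-84034202, lay between genes: 82387 of its 137014 bases were under peaks, and the nearest gene, Haao, was 48207 bases away. Its coverage was much alike in all H3K27ac lists, with 87232 bases in wild-type HSCs after 5FU, 78286 and 85151 in knockout HSCs after PBS and 5FU, and 76399 to 88051 in the 4 HPC lists. Cluster 5, on the same chromosome, covered Zfp36l2, whose product binds and destabilises AU-rich mRNAs. It kept 86.5% to 95.3% of its bases in each of the other 7 H3K27ac lists. Cluster 2 lay over Sgms1 (sphingomyelin synthase 1) with 75505 bases, cluster 3 over Zmiz1 (a transcriptional co-regulator) with 74630, cluster 4 over Gse1 with 67412 and cluster 6 over Arid1b (a subunit of the BAF chromatin remodeller) with 62794. Cluster 7 lay within Etv6, an ETS-family repressor needed by adult HSCs, with 62141 bases. The rest of the first 20 lay at Xxylt1, Runx2, Prdm16, Msi2, Septin9, Ski with Morn1 and Faap20, Ptpre, Irf2, Zfp710, a row of 15 genes on chromosome 19 from Cdk2ap2 to Pold4, Galnt2, Nbeal2 with Ccdc12, and Wwp2.

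Genes of HSC transcription factors and other regulators were the list most often found over the clusters. Of its 35 genes, 22 (62.9%) lay over 18 clusters, against 4.01% of all autosomal genes. They were Mecom, Meis1, Prdm16, Hoxa5, Hoxa7, Hoxa9, Hoxa10, Hoxb3, Hoxb4, Hoxb5, Gata2, Runx1, Erg, Fli1, Tal1, Lmo2, Lyl1, Nfix, Msi2, Mllt3, Etv6 and Zfp36l2. The Hoxa genes share 1 cluster and so do the Hoxb genes, and a gene with a long body meets a cluster more readily, so the 22 are not separate hits. Hlf, Gfi1b, Myb and Hhex were among the 13 without one. All gene lists were chosen with earlier results of these data known, so their shares are descriptions. HSC surface and signalling genes had 10 of 30 (33.3%): Ly6a (Sca-1), Cd9, Cd44, Pdzk1ip1, Esam, Vwf, Clec1a, Cxcr4, Eng and Adgrg1. Kit, Tek and Procr had none over the gene itself, but cluster 73 lay 36533 bases from Kit. Quiescence and immediate early genes had 9 of 27 (33.3%), among them Fos, Junb, Nr4a1, Cdkn1a and Cdkn1b. Lower shares were seen for NF-kB and IL-1 response genes (5 of 21: Nfkb1, Irak2, Irak3, Traf1, Tnf), megakaryocyte and erythroid genes (4 of 18: Gp9, Zfpm1, Nfe2, Car2), lymphoid genes (5 of 24: Ikzf1, Bcl11a, Notch1, Gata3, Foxp1) and interferon response genes (5 of 26, with Ifitm1, Ifitm2 and Ifitm3 in 1 cluster). Cell cycle genes had 1 of 26 (Ccnd3), H3K4 methylation and enhancer complexes 1 of 17 (Pagr1a), stroma and endothelium markers 1 of 16 (Pecam1, which HSCs express too) and housekeeping genes 2 of 18 (Actb, Ywhaz).

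The share of a cluster's covered bases that also lay under a peak of another list, here called the retained share, shows how far each list keeps it. In wild-type HSCs after 5FU the median was 85.2%, and 499 of 500 clusters kept at least 50%. In knockout HSCs it was 67.9% after PBS and 70.8% after 5FU, with 446 and 461 clusters at 50% or more. In HPCs it was 79.2% in wild type after PBS, 74.6% in wild type after IL-1, 69.5% in the knockout after PBS and 59.1% in the knockout after IL-1, where 336 clusters kept 50% or more. For H3K27ac the next 1500 clusters by size gave near the same medians in each list, for example 84.5%, 68.8% and 77.7% in wild-type HSCs after 5FU, knockout HSCs after PBS and wild-type HPCs after PBS. H3K4me1 set the clusters apart more. The median retained share was 76.7% in wild-type HSCs at 8 weeks, against 66.7% for the next 1500 clusters and 39.8% for all clusters. It was 79.5% in wild-type HPCs at 8 weeks, against 70.5% and 43.9%. In the 16-week H3K4me1 lists it was 62.1% in wild type after PBS, 83.3% in wild type after 5FU, 51.9% in the knockout after PBS and 56.3% in the knockout after 5FU. These lists covered 54.0, 116, 44.2 and 44.2 Mb, and the part of list size in the medians was not tested.

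**Figure D2:**
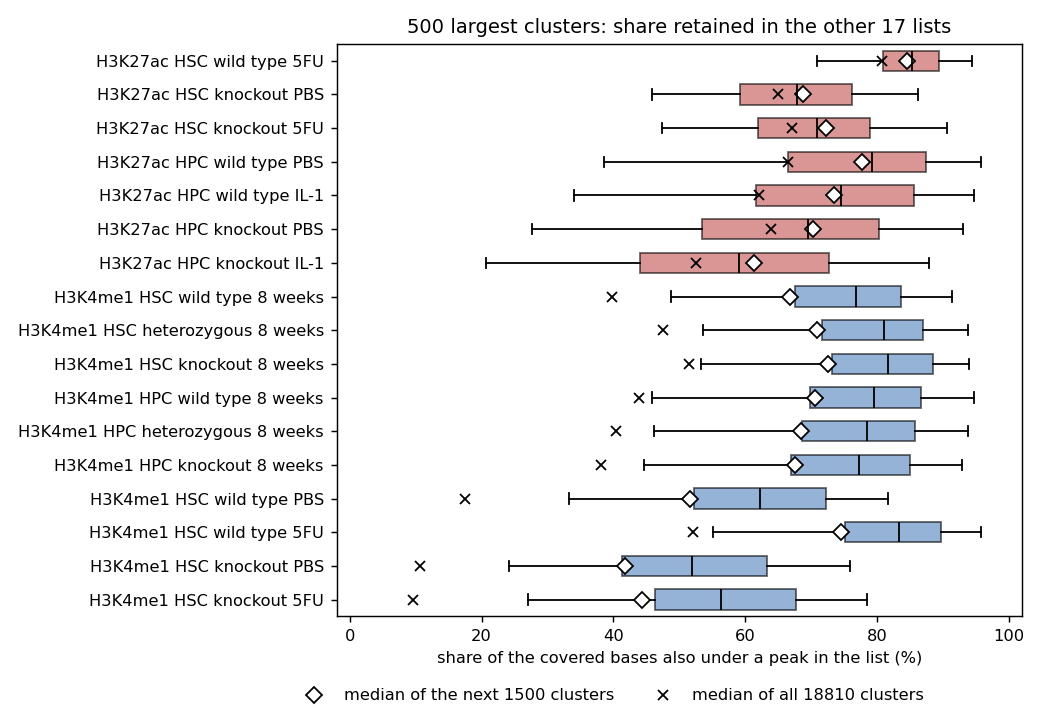
Share of each cluster's H3K27ac-covered bases that lies under a peak in the other 17 lists (x axis, percent): boxes span the quartiles of the 500 clusters with the median as a line, whiskers the 5th to 95th percentile, red for H3K27ac and blue for H3K4me1 lists. Diamonds and crosses mark the medians of the next 1500 and of all clusters. In the H3K27ac lists the diamonds lie close to the box medians and the crosses below them. The crosses lie furthest below in wild-type HPCs (66.5% against 79.2% after PBS, 62.0% against 74.6% after IL-1). In the H3K4me1 lists both lie below the box medians.

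The strength of a peak went with whether other lists held it. The peaks of wild-type HSCs after PBS were put into 4 groups of near equal number by the authors' fold enrichment. In the weakest group 31.9% of the peaks inside the clusters met a peak in knockout HSCs after PBS, and in the strongest 98.7%. Outside the clusters the values were 26.3% and 99.0%. In wild-type HPCs after PBS they were 48.5% and 96.8% inside, 32.0% and 93.0% outside. For H3K4me1 of wild-type HSCs at 8 weeks they were 73.4% and 92.4% inside, 58.8% and 73.9% outside. Peaks inside were somewhat wider than peaks outside in the same group (median 231 against 209 bases in the weakest, 1771 against 1347 in the strongest), and wider peaks meet others more readily.

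Where other lists placed their own largest clusters was compared next, by taking the 500 largest clusters of each H3K27ac list in the same way. Wild-type HSCs after 5FU shared most: 428 of the 500 clusters overlapped 1 of theirs. Knockout HSCs shared 388 after 5FU and 382 after PBS. HPCs shared 335 and 312 in wild type after PBS and IL-1, and 294 and 285 in the knockout. In all 8 lists 201 clusters overlapped a largest cluster, 77 of them among the first 100 by size. Another 40 did so in all 4 HSC lists and in no HPC list. They included Prdm16, Wwp2, Mecom, the cluster near Kit, Cdh23, Vwf (von Willebrand factor, carried by platelet-biased HSCs), Mllt3, Tgfbr3, Cd9, Car2/Car3, Notch3, Hoxb3 to Hoxb5 and Sox18. In these 40 the H3K4me1 lists, which played no part in that grouping, gave a median retained share of 72.3% in wild-type HSCs and 65.7% in wild-type HPCs at 8 weeks, while the 201 gave 78.2% and 82.3%. The HSC and HPC lists of H3K27ac differ in age (16 against 8 to 10 weeks), treatment scheme and library set, so cell type and these cannot be told apart, and in bulk cells fewer cells of a type and less of the mark per cell cannot be told apart either, whereas the 8-week H3K4me1 lists share age and treatment.

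A set of 9 clusters kept under 25% of their bases in all 4 HPC lists. They lay near Glrx3 and over Tbxas1, Mllt3, Tgfbr3, Notch3, Vac14, Sox6, Nol4l and Clec12b/Clec9a/Clec1a. Mllt3 (AF9), a regulator known to maintain human HSCs in culture, had 16104 covered bases in wild-type HSCs after PBS, 19697 after 5FU, and 13296 and 15194 in knockout HSCs. In HPCs the same span held 1176, 680, 1607 and 374 bases. Tgfbr3, the betaglycan co-receptor for TGF-beta, had 14325, 19803, 11310 and 19932 bases in the 4 HSC lists and 1121 to 2319 in the HPC lists. In both, the low HPC values follow largely from the limit of 25% that picked these 9 clusters. The wild-type HSC value after PBS is high because that list chose the clusters, so its gap to the HPC values is a description. The HSC values after 5FU and in the knockout played no part in these choices, and they too lay far above the 4 HPC values. Since the HPC values were picked to be low, that gap is a description as well. At Vac14 no HPC list had a peak, and near Glrx3 and at Tbxas1 only wild-type HPCs after PBS had any (1916 and 3119 bases).

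H3K4me1 was lower by 1.5-fold in wild-type HPCs than in HSCs at 6 of these 9 clusters at 8 weeks, relative to the median cluster, and below that median at 9 of 9. Over all 8169 clusters 8.97% were lower, and of the 500 clusters 26 were lower and 268 lay below the median. The 9 were picked by low H3K27ac in HPCs over spans set by HSC peaks, so these counts are a description. Their median retained share in H3K4me1 was 74.5%, 81.4% and 79.9% in wild-type, heterozygous and knockout HSCs at 8 weeks, and 44.0%, 38.0% and 35.7% in HPCs. At Tgfbr3 H3K4me1 covered 29426, 35957 and 42228 bases of the span in the HSC lists and 4383, 6962 and 5756 in the HPC lists. At Mllt3 it covered 20601, 23597 and 25655 against 6547, 7212 and 7233. The 99 clusters that kept at least 75% in all 4 HPC lists had no such gap: 70.2%, 74.4% and 77.1% in HSCs, 77.0%, 74.8% and 73.2% in HPCs. Of the 9 clusters 5 held no end of a protein-coding gene (55.6%), of the 99 only 20 (20.2%). Ranking the clusters by covered bases times fold enrichment in place of covered bases changed these counts from 9 to 3 and from 99 to 198.

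For comparisons between lists, the covered bases of every span were put on a log2 scale after 1000 bases were added, and the median over all clusters was taken off, counting those where 1 of the lists covered 1000 bases or more. A cluster is called higher or lower where this relative log2 ratio passes 1.5-fold. In H3K4me1 of wild-type cells at 8 weeks 26 of the 500 were lower in HPCs than in HSCs and 7 were higher, while over all 8169 clusters 8.97% were lower and 7.09% higher. Tgfbr3 (relative log2 ratio -2.62), Vac14 (-2.46), Mllt3 (-1.63), the cluster near Glrx3 (-1.43) and Rftn1 (-1.42) were lowest. Cdkn1a (0.89), the cluster near Dusp5 (0.80), Fos (0.79), Ubac2 (0.66) and Rgs3 (0.65) were highest. CDKN1A (p21) halts the cell cycle. At its gene H3K4me1 covered 19590 bases in wild-type HSCs and 40482 in wild-type HPCs. With 5000 bases added the lower count was 14.

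H3K27ac of knockout cells after PBS gave a comparison of cell types without the list that chose the clusters. In HPCs 64 of the 500 clusters were higher and 56 lower than in HSCs. Over all 10271 clusters 11.2% were higher and 11.7% lower, so the members' shares were near the background. Of the 26 clusters lower in HPCs for H3K4me1, 22 (84.6%) were among these 56 (39.3% of them), and the 2 comparisons share no list. Of the next 1500 clusters 62 were lower in both, 63.9% of the 97 lower for H3K4me1. The 22 included Prdm16, Mecom, Vwf, Mllt3, Tgfbr3, Sox6 and Tmod3. Higher in HPCs were Inip/Snx30 (21224 against 6156 bases), Inpp5d (26353 against 7957), Macroh2a1/Tifab (41412 against 15078), B4galt5 (16984 against 6212) and Pecam1/Milr1 (8736 against 3123). Inpp5d encodes SHIP1, a phosphatase that restrains PI3K signalling in blood cells. The 64 and 56 became 26 and 108 with both lists limited to equal covered bases by their best peaks, and 40 and 28 with 5000 bases added. In wild type after PBS, which uses the list that chose the clusters and is given as a description, 43 were higher (background 5.51%) and 51 lower (17.9%). The balance turned to 77 higher and 46 lower with equal numbers of peaks and 78 and 53 with a stricter q filter (peaks with −log10 q of 2 or more), and was 24 and 63 with equal covered bases. Inpp5d, Pxn and Rin3 led the first and Vac14, Mllt3 and the cluster near Glrx3 the second.

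**Figure D3:**
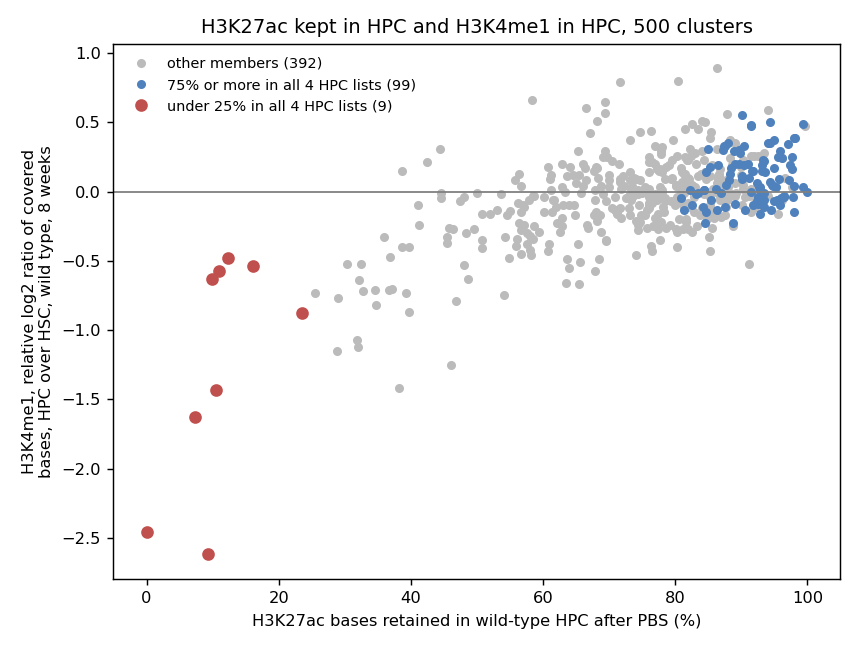
H3K27ac bases retained in wild-type HPCs after PBS (x axis, percent) against the relative log2 ratio of H3K4me1-covered bases, HPC over HSC, in wild type at 8 weeks (y axis), 1 point per cluster. The 9 red clusters under 25% in all 4 HPC lists lie below 0 on the y axis, and the 99 blue clusters at 75% or more scatter around 0.

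Across the 500 clusters Spearman's rho between the 2 measures of that plot was 0.46. The points share the wild-type HSC peaks that set their spans, so it is a description.

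Clusters of HSC transcription factors differed by cell type in both directions for H3K27ac. In knockout cells after PBS 4 of the 18 were higher in HPCs than in HSCs and 4 lower, where 11.2% and 11.7% of all clusters were. For H3K4me1 in wild type at 8 weeks 0 were higher and 3 lower (Prdm16, Mecom and Mllt3), where 7.09% and 8.97% of all clusters were. With 18 clusters these counts are too few to set apart from those shares. Prdm16, which maintains HSCs, had 50154 H3K27ac-covered bases in wild-type HSCs after PBS, 54622 after 5FU, 37929 and 34897 in knockout HSCs after PBS and 5FU, and 17784, 12280, 8998 and 5647 in HPCs (wild type after PBS and IL-1, knockout after PBS and IL-1). Its H3K4me1 covered 75436 bases in wild-type HSCs and 37269 in wild-type HPCs at 8 weeks. Mecom, which encodes EVI1, had 25056 to 27903 H3K27ac-covered bases in the 4 HSC lists and 9146 to 13564 in the 4 HPC lists, with no overlap. Hoxb3 to Hoxb5, the last of which marks long-term HSCs, had 12837 to 13200 against 5795 to 8165. The cluster near Kit had 17783 to 24552 against 6631 to 13855. Lmo2, a bridging partner of TAL1, showed no such gap, with 29821 to 34660 bases in HSCs and 26335 to 32151 in HPCs. Erg had more in HPCs (42417 to 44871) than in HSCs (24281 to 29374), and so did Runx1 (22099 to 33300 against 15705 to 18945). Notch1/Egfl7 had 38155 to 56579 in HPCs and 17217 to 33258 in HSCs, without overlap.

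**Figure D4:**
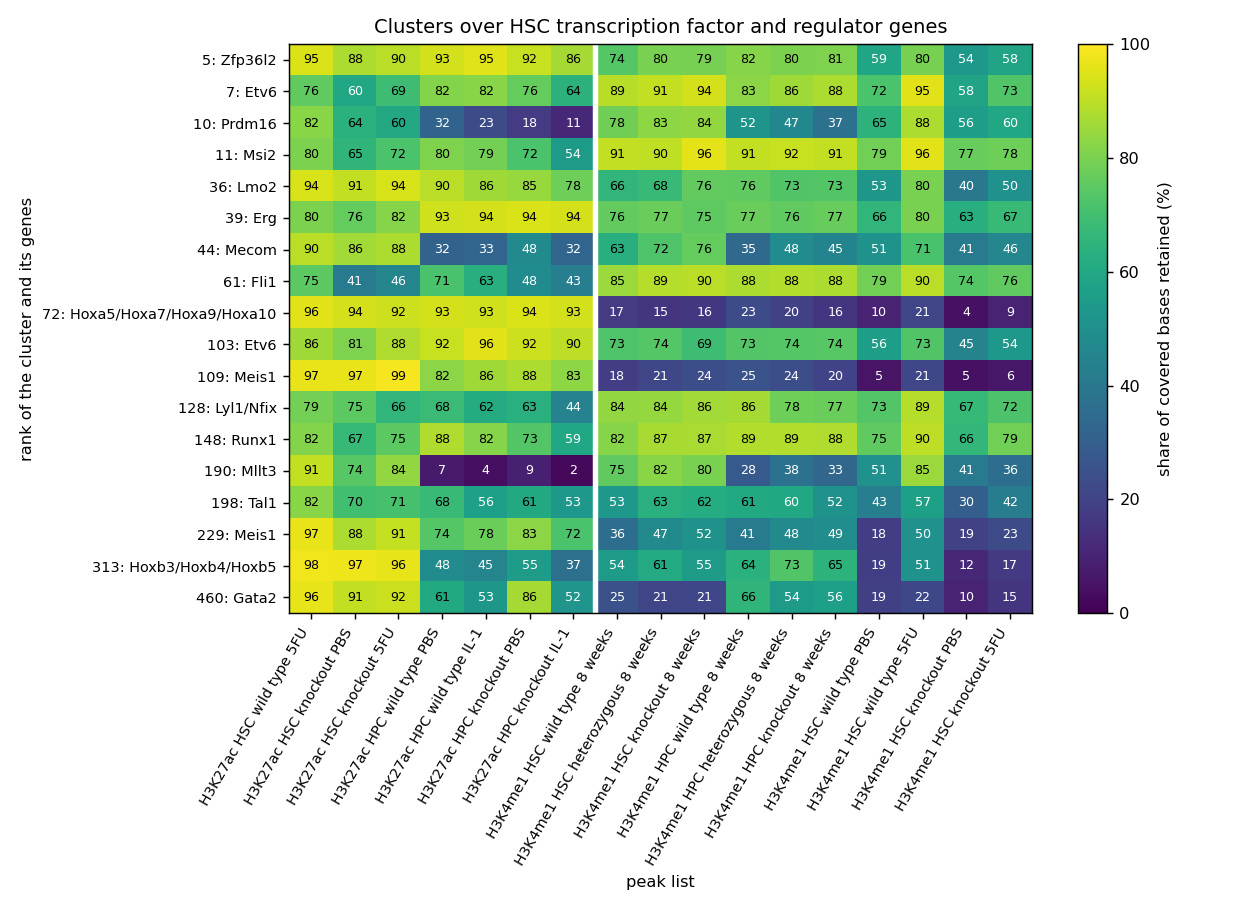
Retained share (percent, colour and number) of the 18 clusters over genes of HSC transcription factors and regulators (rows, by rank) in the other 17 lists (columns, H3K27ac left of the white line and H3K4me1 right of it). Prdm16, Mecom and Mllt3 are dark in the HPC H3K27ac columns, and Hoxa and the Meis1 cluster at rank 109 are dark in the H3K4me1 columns.

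The Hoxa and Meis1 clusters were densely covered by H3K27ac and little by H3K4me1. The Hoxa cluster (Hoxa3 to Hoxa10, chr6:52203230-52235109) was 75.4% covered by 6 wide peaks, and the Meis1 cluster at rank 109, which holds the promoter window shown above, was 84.7% covered by 7. HOXA9 and its cofactor MEIS1 are known to act together in blood stem cells. Hoxa had 24033, 23583, 23388 and 24589 H3K27ac-covered bases in HSCs and 22826 to 23836 in HPCs. Meis1 had 20705, 21400, 21665 and 21989 in HSCs and 17209 to 18575 in HPCs. H3K4me1 was low at both. Its retained share at Hoxa was 4.40% to 22.8% over the 10 lists and at Meis1 4.51% to 25.4%, where the medians over the 500 clusters ran from 51.9% to 83.3%.

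In knockout HSCs after 5FU, compared with wild-type HSCs after 5FU, 64 of the 500 clusters (12.8%) were lower and 0 higher. Over all 10558 clusters 7.87% were lower and 0.606% higher, and of the next 1500 clusters 13.1% were lower, so the members' share was that of clusters nearest in size. The median relative log2 ratio was -0.21, and 425 of 500 lay below the median cluster. Eya2 was lowest with 6417 bases against 19738, followed by Cd82 (5186 against 15216), Myl10 (3789 against 10165), Armc9 (6478 against 15960) and the cluster near Trabd2b (6589 against 16136). CD82 is a membrane tetraspanin known to keep HSCs quiescent. No test was possible, and the count was 28 with 5000 bases added, 21 with equal covered bases and 141 with the stricter q filter. The knockout list covered 36.1 Mb and the wild-type list 44.9 Mb, and the part of list size in the difference was not tested. After PBS, a comparison that uses the list that chose the clusters, 50 were lower (background 8.67%) and 0 higher (0.169%), led by Pecam1/Milr1 (3123 against 12121 bases), Frmd4b, the cluster near Trabd2b and both Cables1 clusters.

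In knockout HPCs after PBS 58 of 499 clusters (11.6%) were lower than in wild-type HPCs after PBS and 0 higher. Over all 9545 clusters 4.80% were lower and 0.828% higher, and of the next 1500 9.26% were lower. Tbxas1 and the cluster near Glrx3 had no peak in the knockout list, against 3119 and 1916 bases in wild type. After IL-1 wild-type HPCs had no peak at these 2 clusters either. Gata3, a factor of T and innate lymphoid cells that HSCs also express, had 982 bases against 6627, Ext2 1036 against 6025 and Cdh23 2388 against 9852. After IL-1 Gata3 had 309 against 6042 and Cdh23 595 against 3640. Of the 64 clusters lower in knockout HSCs after 5FU, 27 (42.2%) were also among these 58 (46.6% of them), and these 2 comparisons share no list. Of the next 1500 clusters 67 were lower in both, 34.0% and 49.3% of the respective counts. The 27 included Galnt2, Fli1, Cdkn1a, Cdh23, Cd82, Eya2, Nfatc1, Cables1 (both clusters), Tgfbr2, Bach2, Lcp2, Zfpm1 and Pecam1. The 58 became 31 with 5000 bases added and 37 with equal covered bases, and the 27 became 7 and 9.

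Eya2 and Fli1 are given in each list as examples, picked after their values were seen from the 27 clusters lower in both comparisons. Their low knockout values in HSCs after 5FU and in HPCs after PBS follow from that pick. Eya2 had 16495 and 19738 bases in wild-type HSCs after PBS and 5FU, 7699 and 6417 in knockout HSCs, 13870 and 9253 in wild-type HPCs after PBS and IL-1, and 5275 and 3711 in knockout HPCs. Every knockout list was below every wild-type list, and how many other clusters did the same was not counted. Fli1, an ETS factor needed for HSCs and megakaryocytes, had 25540 and 31872 in wild-type HSCs, 13045 and 17947 in knockout HSCs, 37016 and 31623 in wild-type HPCs, and 23468 and 19882 in knockout HPCs, with each knockout list below the wild-type lists of its cell type. In HSCs at 8 weeks the bases covered by H3K4me1 were not fewer in the knockout. At Fli1 it covered 71032 bases in wild-type HSCs against 76572 in the knockout, and at Eya2 21960 against 25661. The wild-type list covered 85.8 Mb and the knockout list 113 Mb, and the median log2 ratio over all clusters was 0.16. Relative to that median neither cluster was called higher or lower. The part of list size in these values was not tested.

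Clusters with low fold enrichment were those most often lower in the knockout. The 500 clusters were put into 5 groups of 100 by their mean fold enrichment over covered bases in wild-type HSCs after PBS, a list in neither comparison that follows. In the lowest group (3.53 to 4.75) the median relative log2 ratio of knockout over wild type was -0.44 after 5FU in HSCs, with 32 of 100 lower, and in the highest group (7.50 to 20.3) it was -0.04, with 2 of 100 lower. In HPCs after PBS it was -0.35 with 23 lower and -0.10 with 5 lower. Spearman's rho over the 500 was 0.46 and 0.38. The clusters of HSC transcription factors had medians of 0.01 and 0.01 over 18 clusters, against -0.21 and -0.23 for all 500. In HSCs after 5FU 1 of the 18 was lower (Fli1), where 7.87% of all clusters were. In HPCs after PBS 2 were lower (Fli1 and Prdm16), where 4.80% of all clusters were. These counts are too few to set apart from those shares. Medians near 0 were not particular to this list: the 9 clusters over quiescence and immediate early genes had -0.01 and 0.05. The 10 clusters over HSC surface and signalling genes had medians of -0.28 and -0.22.

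**Figure D5:**
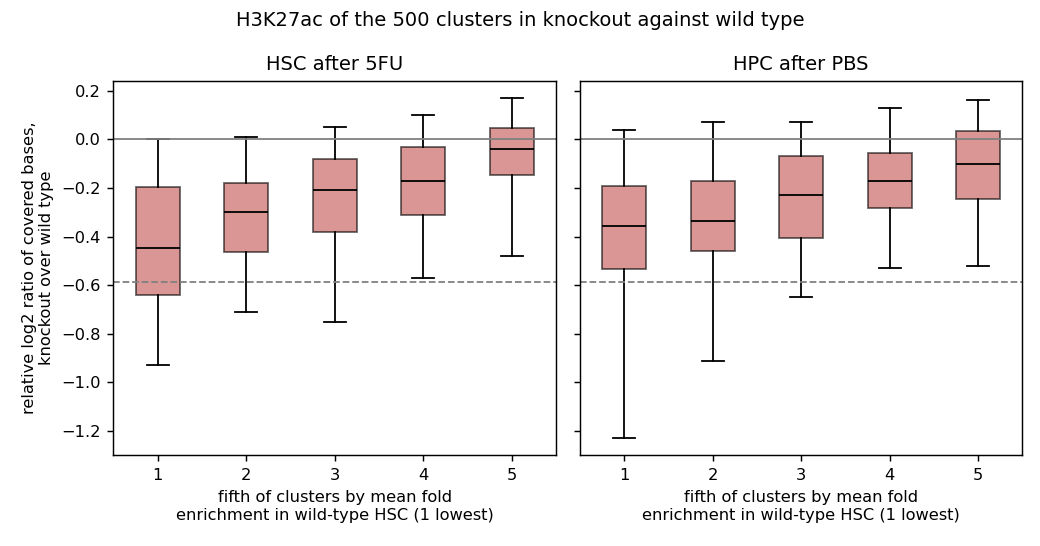
Relative log2 ratio of H3K27ac-covered bases, knockout over wild type (y axis), for the 500 clusters in 5 groups of 100 by mean fold enrichment in wild-type HSCs after PBS (x axis), in HSCs after 5FU (left) and HPCs after PBS (right). Boxes span the quartiles, whiskers the 5th to 95th percentile, and the dashed line is 1.5-fold lower. The medians climb from -0.44 to -0.04 on the left and from -0.35 to -0.10 on the right.

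H3K4me1 of untreated HSCs at 8 weeks differed little by genotype over the clusters. In the knockout 1 cluster, Myl10, was lower (10135 bases against 14188 in wild type, relative log2 ratio -0.61) and 0 were higher, where 0.740% of all 8248 clusters were lower and 3.78% higher. In the heterozygous list 0 were lower and 0 higher, where 0.695% of all 8054 were lower and 2.52% higher. Myl10 was also among the lowest for H3K27ac in knockout HSCs after 5FU, as given above. In the 16-week lists after PBS 17 clusters were lower in the knockout and 0 higher, where 5.96% of all 6007 clusters were lower and 3.16% higher. Dennd4a (2565 bases against 8074), the cluster near Nceh1 (2093 against 6584), Cmtm7/Cmtm8 (3857 against 9289), Chn2 (4817 against 10788) and Cdk19 (7038 against 14726) were lowest. The 17 became 5 with 5000 bases added and 55 with the stricter q filter, and in Dennd4a the 8-week lists showed no such difference (16847 bases in wild type and 19378 in the knockout).

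Few clusters differed between 5FU and PBS. In knockout HSCs 8 clusters were higher after 5FU than after PBS and 4 lower, where 2.62% of all 9804 clusters were higher and 1.25% lower. The direction turned with the processing, to 3 higher and 24 lower with the stricter q filter, 2 and 7 with equal covered bases and 2 and 6 with equal numbers of peaks. Pecam1/Milr1 (8965 bases after 5FU, 3123 after PBS) and Tgfbr3 (19932 and 11310) were highest, followed by Snx29, Krt80 and Sox6. Myl10 (3789 and 8718) was lowest, before the cluster near Glrx3, Akt2 and the cluster near Hsf2bp. In wild-type HSCs, where the PBS list chose the clusters, 0 were higher (background 0.670%) and 1, a Cables1 cluster, was lower (2.19%).

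More clusters were lower than higher in HPCs after IL-1 in the lists as deposited, but in the knockout not with equal covered bases (9 higher and 9 lower). In wild type 2 of 499 were higher and 14 lower, where 1.1% of all 9436 clusters were higher and 3.20% lower. The higher ones were Mapkapk2/Dyrk3 (23570 bases after IL-1, 13535 after PBS) and Tmod3 (7270 and 4386). MAPKAPK2 is a kinase of the p38 pathway, which IL-1 activates. In the knockout 1 of 496 was higher and 27 lower, where 0.755% of all 9273 were higher and 3.95% lower, and the higher one was the cluster near Bcl11a (19102 and 12076). At Mapkapk2/Dyrk3 the knockout lists had 19101 bases after IL-1 and 15106 after PBS. Of the 14 and 27 lower clusters 7 were the same (25.9% of the 27; for the next 1500 clusters 20, or 22.7% of 88): Cuedc1, Eng with Ak1 and St6galnac6, Cdh23, Bahcc1, Ext2, Sox18 with its neighbours, and Slc24a4. The 2 comparisons share no list. Slc24a4 had 1929 bases after IL-1 and 5203 after PBS in wild type, and 1276 and 4344 in the knockout. The 5 clusters over NF-kB and IL-1 response genes had a median relative log2 ratio of 0.04 in wild type (-0.18 to 0.23) and -0.13 in the knockout (-0.25 to 0.17), and 0 of 5 were higher or lower in either. With 5000 bases added the counts of lower clusters became 3 and 4, and 1 was lower in both.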

How the data were processed

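The series has 69 samples, of which 63 libraries fall into 18 groups with 1 peak list each and 6 are input (not analysed here). Novoalign and MACS2 were used on mm10 (GRCm38), per the submitters' processing notes. Versions, filters and the way libraries were pooled: not given in the sources used here. Each deposited list gives each peak's position, a fold enrichment ratio, and its −log10 p and −log10 q, all computed by the authors' peak caller. The lists hold no read counts, so the depth of each list is unknown and no interval or floor is given.

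From these, autosomal peaks of each list were merged, and bases under peaks were counted in the spans of the clusters (Python 3.11.15, numpy 2.4.6, pandas 2.3.3). Clusters were built with a gap of 12.5 kb. Log2 ratios used 1000 added bases, left out clusters under 1000 bases in both lists, and took the median of the rest as 0. With 1 list per group no test was made and no p-value is given. The steps were tested on simulated data. Comparisons that use the wild-type HSC PBS H3K27ac list are descriptions, since that list chose the clusters.

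Genes were taken as protein-coding intervals of the RefSeq table of GRCm38.p6, and 317 of 325 genes of 14 lists matched an autosomal entry. The genes named were those of the 20 largest clusters, the 5 most changed clusters per direction among those called in each comparison, and the clusters over genes of the lists. Examples from the overlaps and coverage groups, and Eya2, Fli1 and Slc24a4 in all lists, were chosen after their values were seen, as were the promoters and miRNAs shown. The clusters and the gene lists were chosen with earlier results of these data known. Alternatives were other gaps, a stricter q, ranking by bases times fold, more added bases, and lists of equal size.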

Additional observations from a re-analysis of the deposited data

How the results depend on the processing

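Of 283 alternatives over 69 results, 204 stayed within the limits set (counts within 1.5 times), and 79 moved. Each is a single count or share, which has no sign to reverse, but the balance of higher and lower clusters turned in some comparisons. For 5FU in the knockout it went from 8 higher and 4 lower to 3 and 24 (stricter q), 2 and 7 (equal covered bases) and 2 and 6 (equal numbers of peaks). For HPC against HSC it went from 64 and 56 to 26 and 108 (equal covered bases) in the knockout, and from 43 and 51 to 77 and 46 (equal numbers of peaks) and 78 and 53 (stricter q) in wild type. No replicate could be left out and no paired analysis was possible because each group has 1 list for all its libraries. Depth limits what a list can hold, and it is unknown. Of the 500 clusters 349, 386, 420 and 340 overlapped a cluster of the set rebuilt with a gap of 5 kb, a gap of 25 kb, peaks with −log10 q of 2 or more, and ranking by bases times fold enrichment. The counts below are those that moved, and the cause was not tested.

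With 5000 bases added, higher and lower counts for HPC against HSC were 40 and 28 in the knockout, the higher count was 19 in wild type, and for H3K4me1 they were 4 and 14. Lower counts for knockout against wild type were 28 in HSCs after 5FU, 22 after PBS, 31 in HPCs, 0 for H3K4me1 at 8 weeks and 5 at 16 weeks. For 5FU they were 2 higher and 1 lower in the knockout and 0 lower in wild type, and for IL-1 1 higher and 3 lower in wild type and 0 higher and 4 lower in the knockout. With equal covered bases, HPC against HSC gave 26 higher and 108 lower in the knockout, 24 higher in wild type and 4 higher for H3K4me1. Knockout against wild type then gave 21 lower in HSCs after 5FU, 1 higher and 17 lower after PBS, 4 higher and 37 lower in HPCs, 3 lower for H3K4me1 at 8 weeks and 4 higher at 16 weeks. 5FU gave 2 higher and 7 lower in the knockout, and IL-1 gave 5 higher in wild type and 9 higher and 9 lower in the knockout. With equal numbers of peaks, HPC against HSC gave 97 higher in the knockout and 77 in wild type, 5FU 2 higher in the knockout, and knockout against wild type 3 higher in HPCs and 0 lower for H3K4me1 at 8 weeks.

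With −log10 q of 2 or more, HPC against HSC gave 78 higher in wild type, and knockout against wild type 141 lower in HSCs after 5FU, 2 higher in HPCs, 0 lower for H3K4me1 at 8 weeks, and 14 higher and 55 lower at 16 weeks. 5FU gave 3 higher and 24 lower in the knockout and 7 higher and 0 lower in wild type, and IL-1 0 higher and 58 lower in the knockout. Clusters keeping at least 50% of their bases in H3K4me1 at 16 weeks were then 210 in the knockout after 5FU, 149 in the knockout after PBS and 217 in wild type after PBS. Clusters lower in 2 comparisons, settings chosen after seeing the data, were 7, 9 and 42 for the knockout with 5000 bases added, equal covered bases and the stricter q. For IL-1 they were 1 and 1 with the first 2 of these, and for HPC against HSC 9 with 5000 bases added.

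Ranking by bases times fold changed the clusters low in HPCs to 3 and those high to 198. It changed the genes over clusters to 2 for granulocytes and monocytes, 2 for megakaryocytes and erythroid cells, 0 for mature lymphocytes and 0 for stroma. A gap of 5 kb gave 4 HSC surface genes, 2 granulocyte and monocyte, 2 megakaryocyte and erythroid, 2 interferon, 0 H3K4 complex, 1 mature lymphocyte and 0 housekeeping genes. A gap of 25 kb gave 5 granulocyte and monocyte, 2 cell cycle, 0 H3K4 complex, 0 mature lymphocyte and 7 housekeeping genes. The stricter q gave 2 megakaryocyte and erythroid and 3 lymphoid genes.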
